A study of Mus musculus with 6 samples.

Results

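The respiratory chain and ATP synthase genes were read by 101 probe sets for 73 genes, of 12422 probe sets on the array that are not controls and 8251 genes named by a probe set of their own. Each probe set is a set of short probes, and some probe sets can read more than 1 gene. The members were all probe sets that the platform annotation assigns to exactly 1 gene whose symbol starts with Nduf, Uqcr, Cox4 to Cox8 or Atp5, or is Sdha, Sdhb, Sdhc, Sdhd, Cyc1 or Cycs. By complex these were 38 probe sets for complex I, 4 for its assembly factors Ndufaf1 and Ndufaf4, 4 for complex II, 9 for complex III, 1 for cytochrome c, 23 for complex IV and 22 for the ATP synthase, which is complex V. A further 10 probe sets carry the name of such a gene together with another gene or a pseudogene and are kept apart, and 2 probe sets for the complex II assembly factors Sdhaf1 and Sdhaf2 were left out.

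RNA came from clone 35/1-22, a single clone of the mouse fibroblast line NIH3T3, so every group shares its constructs. In all groups the oncogenes c-myc and Ha-ras sit behind a Tet-off promoter, which doxycycline silences, and a fusion of the transcription factor IRF-1 to the human estrogen receptor is made constitutively and is activated by estradiol. The doxycycline group received doxycycline at 2 µg/ml (oncogenes off), the withdrawal group received neither agent (oncogenes on), and the estradiol group was kept without doxycycline and given estradiol for 48 h, at 1 mM according to the labels (oncogenes on, IRF-1 fusion activated). Each group had 2 arrays, 1 for each replicate number, and cells grew in DMEM with 10% FCS. The second doxycycline array is titled with both doxycycline and E2 (estradiol), but only doxycycline is entered as its treatment. RNA was taken with RNeasy for replicate 1 and with TRIzol for replicate 2, so the extraction method goes with the replicate number. Whether the replicates were separate cultures is not stated, so the p-values reflect the spread of these arrays alone, and that spread could be technical.

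The respiratory chain passes electrons from NADH through complex I, and from succinate through complex II, to ubiquinone. Complex III hands them on to cytochrome c and complex IV gives them to oxygen. Complexes I, III and IV pump protons out of the mitochondrial matrix, and the ATP synthase makes ATP as the protons flow back. Most subunits are encoded in the nucleus, made in the cytosol and imported, while a small core is encoded by mitochondrial DNA, for which no probe set was named here. Nuclear respiratory factor 1 (NRF1), the ETS factor GABP and YY1 are known regulators of many of the nuclear genes, and Myc binds the E-box.

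Promoters are shown for 5 members described below that have a match to one of these motifs and stood among the largest differences; they were chosen after their values were seen. Each window runs from 250 bases before to 50 bases after the start of the gene in RefSeq on GRCm38.p6, printed 5′ to 3′ on the strand of the gene, with the motif in capitals. The capitals mark an NRF1 site in Uqcrc1, the core of an NRF1 site in Cycs and Ndufa8, a YY1 motif in Ndufb8 and an ETS motif, read on the other strand, in Sdhd. Those in Uqcrc1 (bases 281 to 290 of the window) and Ndufb8 (bases 289 to 296) lie after the start of the gene, the others before it. Uqcrc1 lies at chr9:108936398-108936697 on the + strand, Cycs at chr6:50566520-50566819 on the - strand, Ndufa8 at chr2:36049289-36049588 on the - strand, Ndufb8 at chr19:44555393-44555692 on the - strand and Sdhd at chr9:50603800-50604099 on the - strand.
Uqcrc1: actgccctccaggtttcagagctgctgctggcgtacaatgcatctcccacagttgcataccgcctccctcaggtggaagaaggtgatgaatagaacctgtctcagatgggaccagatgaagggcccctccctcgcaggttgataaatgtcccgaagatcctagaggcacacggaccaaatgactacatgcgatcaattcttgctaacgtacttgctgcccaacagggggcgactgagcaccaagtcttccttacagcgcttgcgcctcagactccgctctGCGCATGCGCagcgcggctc
Cycs: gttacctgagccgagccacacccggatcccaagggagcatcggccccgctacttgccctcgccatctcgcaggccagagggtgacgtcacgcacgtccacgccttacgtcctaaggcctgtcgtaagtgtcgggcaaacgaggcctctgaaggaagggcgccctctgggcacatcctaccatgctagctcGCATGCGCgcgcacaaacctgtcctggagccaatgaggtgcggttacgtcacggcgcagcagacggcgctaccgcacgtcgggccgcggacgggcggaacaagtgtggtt
Ndufa8: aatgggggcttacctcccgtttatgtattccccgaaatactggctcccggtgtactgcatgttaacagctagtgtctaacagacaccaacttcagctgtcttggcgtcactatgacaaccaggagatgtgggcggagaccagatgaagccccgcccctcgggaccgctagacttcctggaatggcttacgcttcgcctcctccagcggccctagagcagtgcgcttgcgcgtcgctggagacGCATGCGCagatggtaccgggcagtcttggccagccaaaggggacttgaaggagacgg
Ndufb8: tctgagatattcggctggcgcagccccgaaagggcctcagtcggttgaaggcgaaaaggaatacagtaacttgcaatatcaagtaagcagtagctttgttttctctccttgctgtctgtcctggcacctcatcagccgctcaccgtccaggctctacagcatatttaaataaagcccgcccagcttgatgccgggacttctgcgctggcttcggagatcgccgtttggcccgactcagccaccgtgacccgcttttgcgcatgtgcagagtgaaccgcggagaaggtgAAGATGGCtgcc
Sdhd: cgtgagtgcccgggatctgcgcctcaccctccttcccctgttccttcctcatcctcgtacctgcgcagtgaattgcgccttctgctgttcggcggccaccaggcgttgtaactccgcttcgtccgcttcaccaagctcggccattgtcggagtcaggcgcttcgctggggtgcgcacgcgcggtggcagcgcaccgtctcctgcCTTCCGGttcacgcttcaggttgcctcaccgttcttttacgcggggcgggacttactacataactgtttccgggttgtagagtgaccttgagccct

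RefSeq windows were matched for 59 of the 73 genes. Some genes have several starts, which gave 64 windows, and each motif was searched on both strands and compared with all 32851 windows of the same length. The full palindromic NRF1 site was in 5 of the 64 windows (7.81%, against 0.971% of all windows). Its core GCATGCGC, which lies within that site on both strands, was in 11 (17.2% against 2.71%), among them those of Cycs, Ndufa8, Sdhb and Uqcr11. The ETS motif CCGGAAG was in 16 (25.0% against 8.86%) and the YY1 motif AAGATGGC in 8 (12.5% against 2.75%). The E-box CACGTG was in 6 (9.38% against 7.15%). In estradiol against doxycycline the 14 probe sets of genes with the NRF1 core had a median log2 difference of 0.294, with 11 above 0, and the 68 probe sets of matched genes without it had a median of 0.124, with 47 above 0. The split by the ETS motif gave 0.142 with it and 0.134 without, the split by the YY1 motif 0.197 and 0.133, and the split by the full NRF1 site 0.275 and 0.133. The E-box went the other way, with 0.004 for the 7 probe sets with it, of which 4 were above 0, and 0.136 for those without. These are descriptions of letters in a window and show no binding.

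The similarity of the arrays followed the labels only in part. Of the 7453 probe sets that passed a filter on low signal, the first withdrawal array and the first estradiol array, as labelled, differed at least 2-fold in 16, against 283 between the doxycycline arrays, 920 between the withdrawal arrays and 250 between the estradiol arrays. Withdrawal replicate 2 differed in 324 from doxycycline replicate 1. Of 9 fibroblast markers, 8 passed the filter (Col1a1, Col1a2, Col3a1, Fn1, P4hb, Pdgfrb, S100a4 and Thy1) and Vim did not. The summed signal of all 9, Vim included, was 24618 to 25536 with doxycycline, 19771 to 22699 after withdrawal and 15206 to 19820 with estradiol. Of the markers of other cells, 2 of 6 epithelial, 0 of 4 endothelial, 2 of 6 blood, 3 of 9 muscle and 0 of 4 fat cell markers passed. The part of these shifts in the results below was not tested, and in RNA from whole cultures a change in the mix of cells and a change in RNA per cell cannot be told apart.

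Levels are deposited MAS5 signals, a brightness on a linear scale, and differences are of log2(signal + 32), a scale that understates those of dim probe sets. No member passed the test in any of the 3 comparisons: limma, with Benjamini-Hochberg adjustment over the 7453 probe sets, called 0 of them in each (0.0%). At an unadjusted p under 0.05 limma gave 326 probe sets (4.37%) for withdrawal against doxycycline, 52 (0.698%) for estradiol against withdrawal and 1041 (14.0%) for estradiol against doxycycline. Of the 75 members that passed the filter these counts held 1, 0 and 8. The 8 of 75 (10.7%) are a smaller share than the 14.0% among all tested probe sets. All 8 were higher with estradiol, and in that direction the share of all tested probe sets was 8.31% (Atp5a1, Cox6a2, Cyc1, Cycs, Ndufa8, Ndufab1, Ndufb8 and Uqcrc1). With the replicate number as a block, limma again called 0 probe sets in each comparison, and the members at an unadjusted p under 0.05 numbered 1, 0 and 12 of 75. In that fit 1219 of the 7453 tested probe sets (16.4%) had such a p in the third comparison, so the 12 of 75 lie close to the background. The values below are therefore signals, and differences that did not pass the test, with n = 2 arrays a group. Where SE is given, it is the limma standard error of that difference. Medians over probe sets and differences with an array left out are given without it.

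The chain was on average slightly higher in 3 arrays and slightly lower in the other 3, and this split did not follow the groups. Relative to each probe set's mean over the 6 arrays, the median of the 101 probe sets was -0.081 and -0.097 on the doxycycline arrays, 0.092 and -0.106 on withdrawal replicates 1 and 2, and 0.090 and 0.092 on the estradiol arrays. The same medians over all 12422 probe sets lay between -0.026 and -0.004. Withdrawal replicate 2 thus sat with the doxycycline arrays and withdrawal replicate 1 with the estradiol arrays. Complex III showed the widest span of the 5 complexes, with -0.151 and -0.282 on the doxycycline arrays, 0.231 and -0.267 after withdrawal and 0.187 and 0.149 with estradiol. Complex IV showed the narrowest, between -0.055 and 0.029. Its medians lay between -0.17 and 0.051 over the 13 probe sets that passed the filter.

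**Figure D1:**
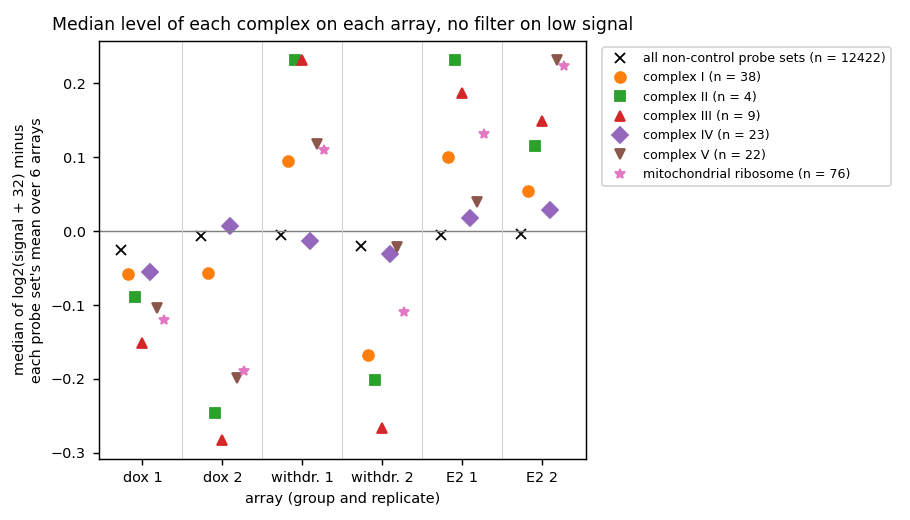
Median deviation on each of the 6 arrays, in log2(signal + 32) relative to each probe set's mean over all arrays, with no filter on low signal; each symbol is 1 complex, the mitochondrial ribosome or all 12422 probe sets. Complex III lies lowest on the second doxycycline array (-0.282) and on withdrawal replicate 2 (-0.267) and above 0 on withdrawal replicate 1 (0.231) and both estradiol arrays (0.187 and 0.149), while all probe sets together stay near 0.

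Complex I, the NADH dehydrogenase, was mixed: in estradiol against doxycycline 25 of its 38 probe sets were higher, with a median log2 difference of 0.125. Ndufab1, the mitochondrial acyl carrier protein that is also a subunit of complex I, had the highest value. Its signals were 310.3 and 420.2 under doxycycline, 504.0 and 392.2 upon withdrawal and 521.5 and 1064.7 under estradiol. Both estradiol arrays lay above the other 4, estradiol replicate 1 only slightly above withdrawal replicate 1 and estradiol replicate 2 well above all others. The log2 difference from doxycycline was 0.99 (SE 0.38, limma adjusted p = 0.323) and from withdrawal 0.71 (SE 0.38, adjusted p = 1.0). Without estradiol replicate 2 these were 0.492 and 0.215.

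Ndufb8, an accessory subunit of the membrane arm whose promoter holds the YY1 motif, had signals of 669.8 and 767.5 under doxycycline, 1061.3 and 1006.6 upon withdrawal and 1064.3 and 1612.0 under estradiol. All 4 arrays without doxycycline lay above both doxycycline arrays. Its log2 difference was 0.51 (SE 0.30) for withdrawal against doxycycline and 0.84 (SE 0.30, limma adjusted p = 0.301) for estradiol against doxycycline. Ndufa8, an accessory subunit with an NRF1 core in its promoter, stood in the same order, with signals of 272.4 and 233.9, then 368.7 and 350.9, then 419.2 and 496.5. The 3 groups of Ndufa8 did not overlap, and the log2 difference between estradiol and doxycycline was 0.78 (SE 0.26, adjusted p = 0.286). Ndufa2, another accessory subunit, also kept its 3 groups apart, at 328.1 and 279.6, then 418.2 and 351.7, then 435.1 and 516.7.

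Ndufs1, Ndufv1 and Ndufa9 differed more within the withdrawal group than between group means. Ndufs1, the largest iron-sulfur subunit, had signals of 517.5 and 520.4 under doxycycline, 922.7 and 426.0 upon withdrawal and 933.6 and 715.3 under estradiol. Its withdrawal arrays were the second highest and the lowest of the 6. Ndufv1, which binds NADH and flavin, had signals of 2436.2 and 1994.9, then 2861.8 and 1881.0, then 2826.0 and 2468.2. Ndufa9, an accessory subunit at the junction of the arms, had signals of 901.4 and 852.9, then 1405.1 and 554.3, then 1475.1 and 1031.5. Each of the 3 had its lowest signal on withdrawal replicate 2, as had 18 of the 75 members that passed the filter (24.0%, against 19.6% of all tested probe sets).

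Ndufb3, an accessory subunit of the membrane arm, was the complex I member furthest below doxycycline. Its signals were 1038.9 and 773.9 under doxycycline, 634.2 and 401.5 upon withdrawal and 502.1 and 566.1 under estradiol. The 4 arrays without doxycycline all lay below both doxycycline arrays. Its log2 difference for withdrawal against doxycycline was -0.79 (SE 0.32, limma adjusted p = 0.925), and it was the only member with an unadjusted p under 0.05 (0.0378) in that comparison. Ndufa10, at 118.2 and 142.0, then 97.7 and 86.6, then 57.3 and 102.4, ran the same way. Ndufv3, a small subunit of the NADH-oxidising arm, was lowest with estradiol, at 321.0 and 274.9, then 268.6 and 330.1, then 235.1 and 200.4. It was the lowest complex I member in estradiol against withdrawal, with a log2 difference of -0.41 (SE 0.27).

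The assembly factor Ndufaf1 was read at 136.4 and 146.4, then 139.7 and 119.1, then 168.0 and 128.6 by its brighter probe set, and its groups overlapped in every comparison. Ndufaf4, another assembly factor, had signals between 22.9 and 69.4 by the probe set that passed the filter, which overlapped likewise, and 0.7 to 7.4 by the other.

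**Figure D2:**
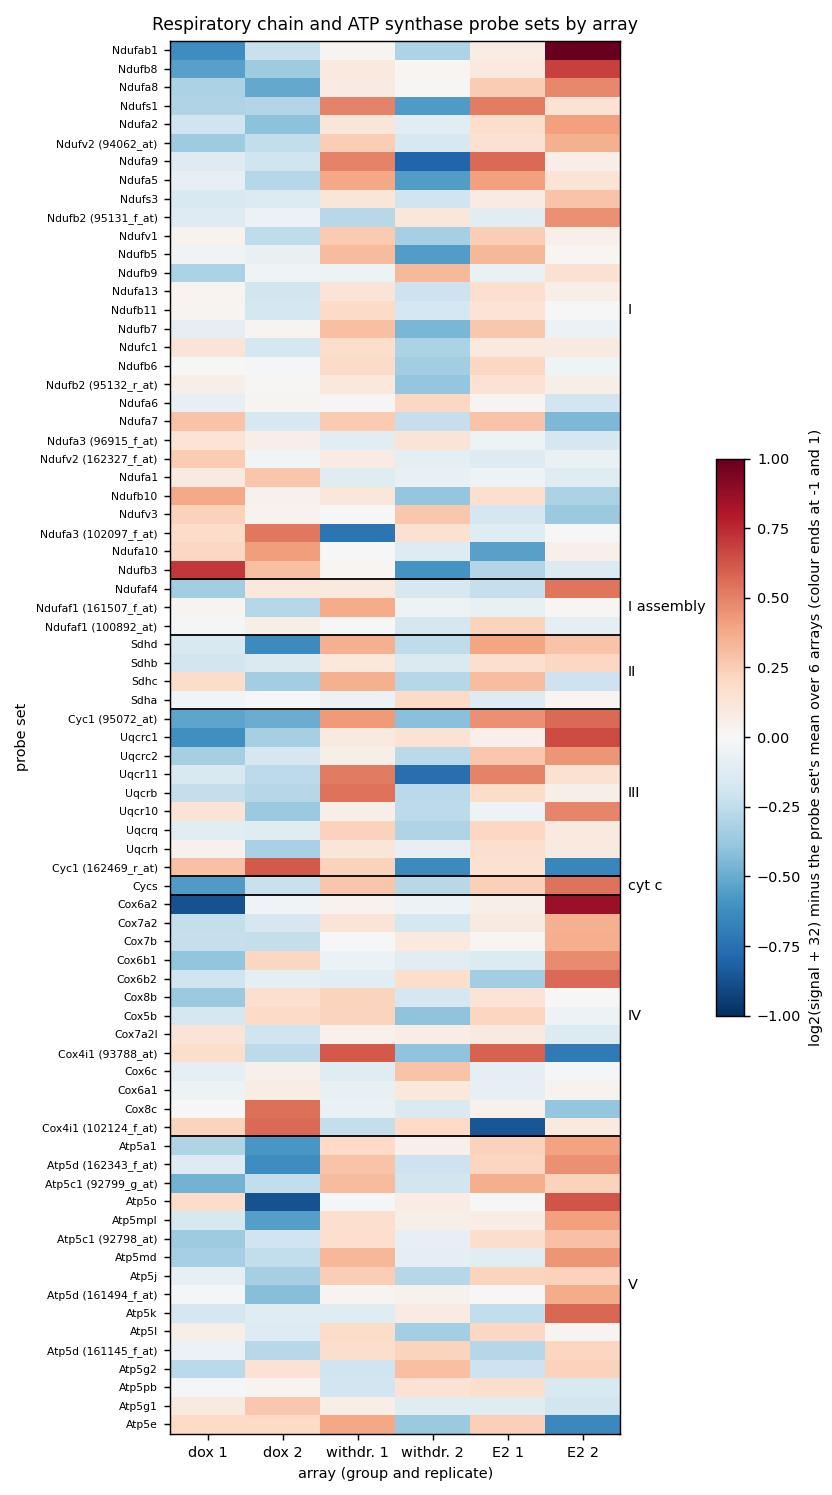
Deviation of each member probe set that passed the filter on low signal from its mean over the 6 arrays, in log2(signal + 32), with rows grouped by complex and columns by array. The columns of withdrawal replicate 1 and estradiol replicate 1 look nearly alike, and withdrawal replicate 2 is lower in many rows. Between the first 2 of these, 0 of the 75 members differed at least 2-fold (0.215% of all tested probe sets did). The same count of 0 was found between doxycycline replicate 1 and withdrawal replicate 1 (6.55% of all).

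Complex II, succinate dehydrogenase, also belongs to the citric acid cycle and has no subunit encoded in mitochondria. Sdhd, a membrane anchor whose promoter holds the ETS motif, had signals of 731.0 and 514.2 under doxycycline, 1054.8 and 678.4 upon withdrawal and 1084.6 and 1000.0 under estradiol. The estradiol arrays lay above both doxycycline arrays, while the withdrawal arrays straddled the first of these. The log2 difference between estradiol and doxycycline was 0.73 (SE 0.33, limma adjusted p = 0.361). Sdhb, the iron-sulfur subunit, had signals of 543.9 and 560.0, then 672.1 and 558.4, then 696.4 and 723.4, with both estradiol arrays highest. Sdhc, the other anchor, went with the replicate number: 1232.5, 1392.4 and 1344.2 on the arrays of replicate 1, and 841.9, 879.5 and 930.0 on those of replicate 2. The catalytic subunit Sdha was dim, between 52.0 and 72.8 on all arrays, and its differences were -0.04 (SE 0.24) for estradiol against doxycycline and 0.08 (SE 0.24) for withdrawal against doxycycline.

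Complex III, which oxidises ubiquinol, had 8 of 9 probe sets higher in estradiol against doxycycline, with a median log2 difference of 0.382 (0.007 over all probe sets), and 7 of the 9 had both estradiol arrays above both doxycycline arrays (24.1% of all probe sets did) while 1 had them below (20.9%). Cyc1, cytochrome c1, had the largest difference of any tested member by the brighter probe set, with signals of 1479.3 and 1514.6 under doxycycline, 2898.5 and 1597.4 upon withdrawal and 2962.7 and 3198.3 under estradiol. Withdrawal replicate 1 lay near the estradiol arrays and withdrawal replicate 2 near the doxycycline arrays. Its log2 difference between estradiol and doxycycline was 1.03 (SE 0.33, limma adjusted p = 0.280), a 2.03-fold ratio. The other Cyc1 probe set ran the opposite way, with signals of 1353.3 and 1691.4, then 1293.0 and 695.4, then 1219.9 and 687.4. Its difference was -0.70 (SE 0.40), so the direction of Cyc1 depends on the probe set.

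Uqcrc1, a core subunit and one of the genes with the full NRF1 site, had signals of 659.1 and 809.1 under doxycycline, 1094.0 and 1135.2 upon withdrawal and 1063.1 and 1626.4 under estradiol. All 4 arrays without doxycycline lay above both doxycycline arrays. Its log2 difference was 0.59 (SE 0.31, limma adjusted p = 0.925) for withdrawal and 0.82 (SE 0.31, adjusted p = 0.314) for estradiol. The other core subunit Uqcrc2 had both estradiol arrays above the other 4, at 286.2 and 324.3, then 385.9 and 301.4, then 450.7 and 513.6. The small subunits Uqcrq and Uqcrh lay between 2684.2 and 3895.3 and between 1229.3 and 1727.1, and Uqcr11 was lowest on withdrawal replicate 2 (865.4) and highest on withdrawal replicate 1 (2138.1).

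Cycs, the mobile electron carrier cytochrome c, which also triggers caspase activation when it leaves mitochondria, was dim on these arrays. Its signals were 25.6 and 40.8 under doxycycline, 71.2 and 38.4 upon withdrawal and 68.4 and 92.2 under estradiol. The estradiol arrays lay above the doxycycline arrays, with withdrawal replicate 1 inside the estradiol range and withdrawal replicate 2 inside the doxycycline range. The log2 difference between estradiol and doxycycline was 0.79 (SE 0.29, limma adjusted p = 0.308).

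**Figure D3:**
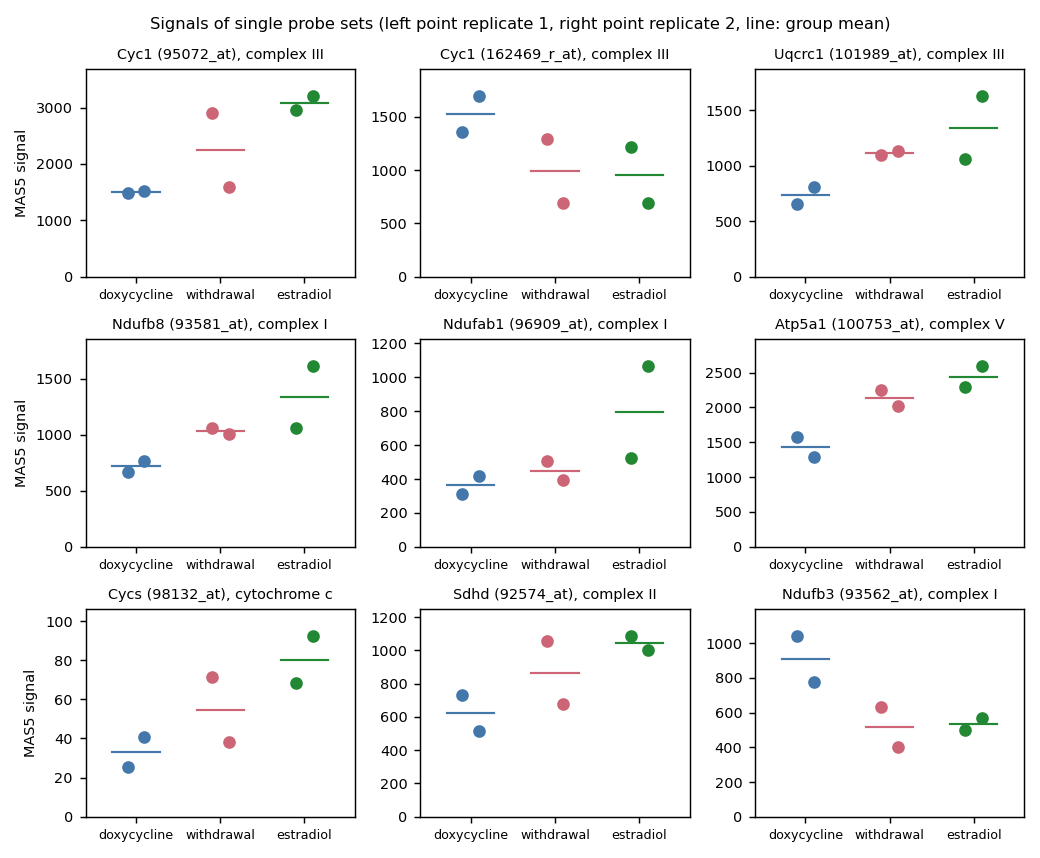
MAS5 signals of single member probe sets by group; in each panel the left point is replicate 1, the right point replicate 2 and the line the group mean. The 2 Cyc1 probe sets run in opposite directions, and Ndufb3 is the member furthest below doxycycline in the withdrawal group, at 634.2 and 401.5 against 1038.9 and 773.9.

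Complex IV, cytochrome c oxidase, differed least in estradiol against doxycycline, with 13 of 23 probe sets higher and a median log2 difference of 0.069. Several of its bright general subunits were nearly level. Cox6a1 had signals of 3115.3 and 3412.4 under doxycycline, 3072.1 and 3477.8 upon withdrawal and 3055.8 and 3313.0 under estradiol, and the pairs follow the replicate number more than the group. The log2 difference of Cox6a1 between estradiol and doxycycline was -0.04 (SE 0.26) and that of the bright Cox6c probe set, at 2726.9 to 3618.7, was -0.03 (SE 0.28). Cox7b, a small subunit, was the complex IV member with all 4 arrays without doxycycline above both doxycycline arrays, at 428.0 and 426.8, then 505.4 and 545.0, then 514.4 and 662.1.

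Some subunits of complex IV have a heart and muscle isoform beside the general one. Cox6a2, the muscle isoform, had dim signals of 9.7 and 42.4 under doxycycline, 46.4 and 41.8 upon withdrawal and 47.6 and 106.6 under estradiol. Its value rests on a low first doxycycline array and a high second estradiol array, and the log2 difference was 0.92 (SE 0.37, limma adjusted p = 0.338), or 0.498 without doxycycline replicate 1. The summed signal of the 9 muscle markers was 177.6 to 192.5 with doxycycline, 155.3 to 247.5 after withdrawal and 240.0 to 281.8 with estradiol. Of these markers Myh7, Myog and Tnnt2 passed the filter, and Ckm, Des, Actn2, Myh1, Myh2 and Myh6 did not. Cox7a1, the muscle counterpart of Cox7a2, lay between 1.4 and 22.4 and did not pass the filter. Cox7a2 had signals of 1148.0 and 1205.6, then 1487.8 and 1194.2, then 1449.7 and 1747.1, with both estradiol arrays above the doxycycline arrays. Cox8b, another muscle isoform, lay between 66.9 and 117.3 with overlapping groups by one probe set, and between 2.7 and 16.9 by another that did not pass the filter. Its general counterpart Cox8a did not pass either, at 1.1 to 10.4.

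Cox4i1, the general isoform of a subunit close to the catalytic core, was read by 2 dim probe sets. The brighter was 98.2 and 133.1 under doxycycline, 62.4 and 96.1 upon withdrawal and 29.7 and 87.5 under estradiol (log2 difference between estradiol and doxycycline -0.77, SE 0.36). Without estradiol replicate 1 this value was -0.295 and without estradiol replicate 2 it was -1.249. The other was 54.9 and 32.3, then 85.7 and 26.3, then 83.8 and 15.1, so every replicate 1 array lay above every replicate 2 array, and the difference was -0.02 (SE 0.48).

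Complex V, the ATP synthase, had 17 of 22 probe sets higher in estradiol against doxycycline, with a median log2 difference of 0.255, and 16 of 22 higher in withdrawal against doxycycline, with a median of 0.190. Atp5a1, the alpha subunit of the catalytic head, had signals of 1577.1 and 1293.9 under doxycycline, 2250.1 and 2017.2 upon withdrawal and 2290.3 and 2588.3 under estradiol. Its 3 groups did not overlap, and its log2 difference was 0.57 (SE 0.28) for withdrawal and 0.76 (SE 0.28, limma adjusted p = 0.305) for estradiol. Atp5c1, the gamma subunit that turns inside the head, had signals of 568.2 and 635.8, then 829.9 and 689.8, then 832.5 and 904.6 by one probe set. By the other it had 954.3 and 1121.1, then 1674.5 and 1176.8, then 1727.3 and 1573.7. Both Atp5c1 probe sets put all 4 arrays without doxycycline above both doxycycline arrays.

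Atp5d, the delta subunit of the rotating stalk, was read by 5 probe sets, of which 3 passed the filter. The brightest had signals of 272.0 and 184.2 under doxycycline, 371.5 and 254.6 upon withdrawal and 353.9 and 422.2 under estradiol, a log2 difference of 0.71 (SE 0.31, limma adjusted p = 0.359) between estradiol and doxycycline. The other 2 that passed gave 0.41 (SE 0.27) and 0.13 (SE 0.28). Of those that did not pass, one was lower without doxycycline, at 38.6 and 58.3, then 19.9 and 14.5, then 23.4 and 21.1. The epsilon subunit Atp5e was low on both replicate 2 arrays without doxycycline, at 540.2 and 541.7, then 621.6 and 353.8, then 556.6 and 286.7. The small associated proteins Atp5mpl and Atp5md each had all 4 arrays without doxycycline above both doxycycline arrays, at 1020.4 and 770.6, then 1290.8 and 1191.7, then 1205.9 and 1532.2 for Atp5mpl.

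The membrane ring of the ATP synthase is built of identical c subunits, which several genes encode. Atp5g1, by its brighter probe set, was dim and ran downward, at 38.5 and 47.7 under doxycycline, 37.4 and 28.9 upon withdrawal and 28.8 and 26.4 under estradiol, and its 3 groups did not overlap (log2 difference between estradiol and doxycycline -0.33, SE 0.24). The brighter Atp5g2 probe set went with the replicate number, at 206.0, 217.8 and 216.2 on replicate 1 and 283.9, 319.8 and 303.6 on replicate 2. The other, which did not pass the filter, had both estradiol arrays above the other 4, at 4.2 and 5.5, then 10.7 and 4.7, then 28.1 and 17.9. The dimmer Atp5g1 probe set did not pass either, at 16.7 to 42.6.

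Of the 73 genes, 21 were read by more than 1 probe set, and 8 of these had more than 1 that passed the filter. In estradiol against doxycycline the signs of the passing probe sets differed for 2 of the 8, Cyc1 and Ndufv2. Ndufv2, an iron-sulfur subunit of complex I, was 449.5 and 487.0, then 697.9 and 518.5, then 651.3 and 752.0 by its bright probe set and lay between 35.8 and 56.3 by the dim one. Ndufa3, a small accessory subunit of complex I, had all 4 arrays without doxycycline below both doxycycline arrays by its dim probe set, at 47.2 and 68.8, then 10.0 and 45.5, then 32.3 and 37.6. Its bright one lay between 861.2 and 1067.3, with a log2 difference between estradiol and doxycycline of -0.21 (SE 0.27). Ndufa1, another small subunit, was also below doxycycline by its brighter probe set, at 43.9 and 54.3, then 33.5 and 35.6, then 36.9 and 33.7, and above it by the other, at 3.1 and 5.0, then 11.4 and 15.9, then 14.6 and 26.0.

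Of the 4 Ndufb2 probe sets 2 passed the filter, with differences of 0.27 (SE 0.31) and 0.07 (SE 0.29), and the other 2 lay at or below 13.4. The groups overlapped in that comparison for the bright probe sets of Ndufb6, Ndufb7 and Ndufb10, with differences of 0.09 (SE 0.30), 0.13 (SE 0.33) and -0.29 (SE 0.32), and the dim probe set of each lay at or below 11.6. In complex IV, the Cox6b2 probe set that passed differed by 0.25 (SE 0.33) and that of Cox8c by -0.45 (SE 0.30), both with overlapping groups. The dim probe sets of Cox6b2, Cox6c and Cox8c lay at or below 33.5, and the 2 of Cox5a, neither of which passed, at or below 28.6. In complex V, Atp5l differed by 0.15 (SE 0.30) by its bright probe set, with overlapping groups, and lay between 12.6 and 35.2 by the dim one. The dim probe set of Ndufaf1 lay between 23.4 and 55.4, with a difference of 0.10 (SE 0.27).

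The 26 member probe sets that did not pass the filter lay at or below 58.3 on every array. Of these, 8 were for the 7 genes with no probe set that passed (Atp5j2, Cox5a, Cox7a1, Cox8a, Ndufa12, Ndufc2 and Ndufs4), and the rest belong to genes that another probe set reads.

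The first comparison, withdrawal against doxycycline, asks what the oncogenes change, although doxycycline itself differs too. Over all 101 probe sets the median log2 difference was 0.091 (0.006 over all 12422), and 69 were higher (68.3% against 51.3%). The median was 0.172 in replicate 1 and -0.013 in replicate 2. Both withdrawal arrays lay above both doxycycline arrays for 18 members (17.8% against 16.3% of all probe sets) and below them for 11 (10.9% against 15.3%). The medians were 0.013 for complex I, 0.130 for complex II, 0.149 for complex III, 0.059 for complex IV and 0.190 for complex V. The outcome turned on 1 array: without withdrawal replicate 1 the median of the members was -0.006 and 34 were higher than both doxycycline arrays (36.0% of all probe sets were), and without withdrawal replicate 2 it was 0.205 and 57 were (36.6%).

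The second comparison, estradiol against withdrawal, asks what the activated IRF-1 fusion changes in cells with the oncogenes on, although estradiol itself differs too. The median was 0.143 (0.008 over all probe sets), and 70 members were higher (69.3% against 52.0%). Both estradiol arrays lay above both withdrawal arrays for 18 members (17.8% against 12.3%) and below them for 6 (5.94% against 10.6%). The arrays of replicate 1 gave a median of 0.004 and those of replicate 2 gave 0.274. Replicate 1 compares the 2 arrays that were nearly alike, so the difference came from replicate 2. Without withdrawal replicate 2 the median was 0.006, and without withdrawal replicate 1 it was 0.237. Both comparisons use the withdrawal arrays, so a low withdrawal array moves them in opposite directions.

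The third comparison, estradiol against doxycycline, spans both changes. The median was 0.147 (0.007 over all probe sets; 0.142 for the arrays of replicate 1, 0.219 for those of replicate 2), and 71 members were higher (70.3% against 51.2%). Both estradiol arrays lay above both doxycycline arrays for 40 members (39.6% against 24.1%) and below them for 12 (11.9% against 20.9%). Without any single doxycycline or estradiol array the median lay between 0.150 and 0.199. All 4 arrays without doxycycline lay above both doxycycline arrays for 14 members (13.9% against 11.6%) and below them for 8 (7.92% against 9.76%). Estradiol replicate 2 was the highest of the 6 arrays for 27 of the 75 members that passed the filter (36.0%, against 21.5% of all tested probe sets).

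**Figure D4:**
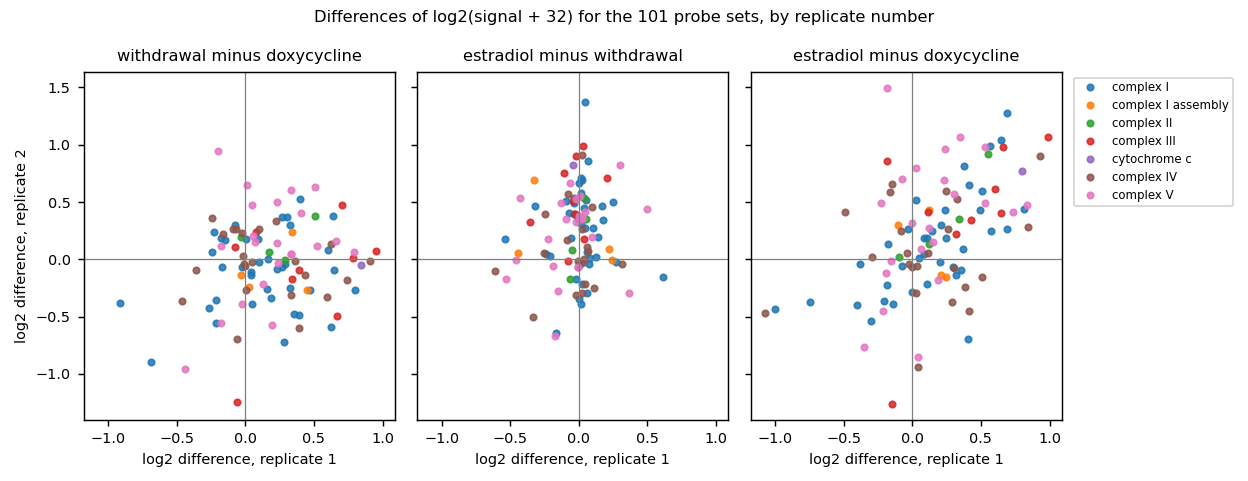
Log2 difference of each of the 101 member probe sets in replicate 1 (horizontal axis) against replicate 2 (vertical axis), in log2(signal + 32), with 1 panel for each comparison. In estradiol against withdrawal the points lie in a narrow upright band, with a median of 0.004 across and 0.274 upward, and in estradiol against doxycycline both medians lie above 0, at 0.142 and 0.219.

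The other mitochondrial gene lists lay on the same side of doxycycline, and no gene of any list passed the test. In estradiol against doxycycline the mitochondrial ribosome had 65 of 76 probe sets higher, with a median log2 difference of 0.442. With limma 12 of its 66 tested probe sets had an unadjusted p under 0.05, all higher (18.2%). Of all tested probe sets 8.31% were higher at that p, and 14.0% had such a p in either direction. The share higher at that p was 29.2% for the assembly and import factors (7 of 24) and 30.8% for the regulators (4 of 13). It was 14.0% for the proteasome (6 of 43), 9.09% for carriers and porins (1 of 11) and 6.45% for cytosolic ribosomal proteins (2 of 31). For the citric acid cycle and pyruvate dehydrogenase it was 0.0% (0 of 16). Mrpl20, a large-subunit protein of the mitochondrial ribosome, had signals of 117.2 and 116.5 under doxycycline, 179.8 and 162.0 upon withdrawal and 208.0 and 248.3 under estradiol. The citric acid cycle and pyruvate dehydrogenase had 15 of 20 higher, with a median of 0.334, and citrate synthase, Cs, had signals of 891.7 and 674.3, then 1022.8 and 1083.8, then 1061.0 and 1283.6. The assembly and import factors had 23 of 28 higher (median 0.240). Among them Timm8a1, a chaperone of the space between the membranes, had signals of 85.9 and 75.1, then 268.1 and 98.2, then 240.2 and 423.3, a log2 difference of 1.65 (SE 0.43). Prohibitin Phb2 had 346.7 and 363.2, then 671.9 and 569.5, then 668.4 and 997.3 (1.13, SE 0.30).

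The carriers and porins had 11 of 14 higher (median 0.257). The adenine nucleotide carrier Slc25a4, which exchanges ADP for ATP, was nearly level at 1990.5 and 1798.6, then 1862.5 and 1507.9, then 1821.5 and 1638.9. Slc25a5, another such carrier, differed by 0.37 (SE 0.31) and 0.27 (SE 0.25) between estradiol and doxycycline by the probe sets that passed the filter. The regulators had 13 of 19 higher (median 0.248). Esrra differed by 0.72 (SE 0.28) and 0.87 (SE 0.36) between estradiol and doxycycline by separate probe sets. Each of these had a limma unadjusted p under 0.05, so the share of regulators at that p counts Esrra repeatedly. Pprc1, a coactivator related to PGC-1, had signals of 37.7 and 44.6, then 64.1 and 86.8, then 64.7 and 164.1, and Yy1 had 48.0 and 74.9, then 128.6 and 86.1, then 108.3 and 126.7. Gabpa was dim, with differences of 0.25 (SE 0.26) and 0.21 (SE 0.31) by its 2 probe sets, and Tfam and Ppargc1a did not pass the filter. Nrf1 was looked for too, but no probe set was assigned to it alone, so its level is not known here. Outside the mitochondria, the proteasome subunits had 42 of 48 higher with a median of 0.422, and the cytosolic ribosomal proteins 33 of 49 with a median of 0.124. The chain's median of 0.147 thus lay below those of the mitochondrial ribosome and the proteasome and near that of the cytosolic ribosomal proteins. Among the probe sets that passed the filter these medians were 0.253 for the chain, 0.479 for the mitochondrial ribosome, 0.461 for the proteasome and 0.115 for the cytosolic ribosomal proteins, so the nearness to the last depends on the filter. These differences between lists were not tested.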

How the data were processed

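Total RNA was labelled as biotin cRNA and hybridised to 1-colour Affymetrix arrays, 6 in all. The deposited values are MAS5 signals, an intensity on a linear scale, per the submitters' processing notes; a software version is not given in the sources used here. Trimmed means were 150.09 to 150.1 over the arrays, so the deposited values had been scaled. Of 12488 probe sets, 66 controls were left out. The platform annotation gave 10833 of the others 1 symbol, 396 several and 1193 none. No probe set was matched to a genome position, and the promoter windows come from RefSeq.

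Arrays were scaled to the common trimmed mean (factors 0.999968 to 1.00006) and turned into log2(signal + 32). Probe sets in the dimmest 40% by mean over the arrays (below a signal of about 29.0) were not tested. The other 7453 were fitted with limma 3.58.1 in R 4.3.3, with 1 mean per group over the 6 arrays, an intensity trend, 3 residual and 5.23 prior degrees of freedom, two-sided p-values, Benjamini-Hochberg adjustment and a threshold of 0.05. The script was tested on simulated data with independent arrays and the same spread for every probe set. That test does not cover unequal spreads or arrays that resemble each other across groups. Counts and medians over members use all 101 probe sets, with no filter, beside the same over 12422. A member that passed the filter may have passed through the group where it is high.

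The replicate number marks the extraction method in the labels, and so pairs the arrays by the labels. Deviations from the group means correlated at -0.00727 (doxycycline and withdrawal), -0.0284 (doxycycline and estradiol) and 0.449 (withdrawal and estradiol), so fold changes per replicate number are descriptions.

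The members, lists, motifs and tests were chosen with earlier results of these data known. Members were named if they were the highest or lowest of their complex in a comparison, read by several probe sets, a tissue isoform, a c subunit or a core subunit; other genes if named beforehand or among the smallest p of their list; those beyond the rule were chosen after their values were seen. Kinases of the Rps6k family were taken out of the ribosomal list.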

Additional observations from a re-analysis of the deposited data

How the results depend on the processing

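With 2 arrays a group and linear signals near background for many members, precision was limited. Adding 16 or 64 before log2, no filter, quantile normalization, no intensity trend and the replicate block each left 0 probe sets called by limma in the 3 comparisons. Under the block, 435, 64 and 1219 probe sets had an unadjusted p under 0.05 in place of 326, 52 and 1041, with 0 called, and in this balanced design the median log2 differences of the members were the same. Leaving out 1 array at a time gave 0 to 26 called probe sets for withdrawal against doxycycline (26 without doxycycline replicate 1), 0 to 17 for estradiol against withdrawal (17 without withdrawal replicate 1) and 0 to 136 for estradiol against doxycycline (25 without the first doxycycline array, 131 and 136 without the first and second withdrawal array). No member was among them under any setting, and the lowest adjusted p of a member was 0.0622, for Cyc1 in estradiol against doxycycline. The cause of these counts was not tested.

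The member medians ranged, leaving out 1 array, from -0.006 to 0.205, from 0.006 to 0.237 and from 0.147 to 0.199 in the 3 comparisons, and with 16 or 64 added or quantile normalization from 0.067 to 0.103, from 0.106 to 0.165 and from 0.127 to 0.204. The counts of members with groups that do not overlap, higher, ranged from 18 to 57, from 18 to 53 and from 40 to 56 of 101, beside 16.3% to 36.6%, 12.3% to 38.1% and 24.1% to 39.6% of all probe sets; these counts were added after seeing the data, and fewer arrays make such a count larger for all probe sets too. Of 432 alternatives for 36 named values, 423 kept the direction and side of the threshold. For part of these the direction was fixed in advance. No filter, no intensity trend and the replicate block leave a difference of group means as it is. So does leaving out an array of the group outside the comparison. The count therefore overstates how stable the directions are. Leaving out 1 array turned the direction for 8 values. In estradiol against withdrawal, the brighter Cox4i1 probe set ranged from -0.834 to 0.120, the Atp5d probe set that differed least from doxycycline among those tested from -0.481 to 0.018, the dimmer Cyc1 probe set from -0.481 to 0.384, Sdhd from -0.018 to 0.596 and Sdha from -0.246 to 0.006. In estradiol against doxycycline, Atp5e ranged from -0.846 to 0.039 and Sdha from -0.113 to 0.034, and in withdrawal against doxycycline Sdha ranged from -0.046 to 0.206.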

Other observations

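The 10 probe sets that name a chain gene together with a copy or pseudogene were outside every count above, since their signal can come from either. The probe set for Ndufs5, an accessory subunit of complex I, and its pseudogene had signals of 1186.7 and 1161.0 under doxycycline, 980.9 and 588.9 upon withdrawal and 992.0 and 704.3 under estradiol. All 4 arrays without doxycycline were below both doxycycline arrays. The probe set for Ndufab1 and Ndufab1-ps ran upward, at 203.9 and 204.3, then 335.9 and 257.9, then 328.7 and 430.8. The probe set that reads Ndufab1 alone had its highest signal on the same array, estradiol replicate 2, at 1064.7. Cox7c, a small subunit of complex IV, was read together with Gm12338 at 4746.6 and 5169.2, then 6456.0 and 4412.2, then 6669.2 and 5314.5 by one of its probe sets. By the other it had 2627.5 and 4140.3, then 3557.7 and 2345.3, then 3537.4 and 3084.6, with overlapping groups. The log2 differences between estradiol and doxycycline were 0.264 and 0.002.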
